A study of Equus caballus with 19 samples.

Results

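The genes described here are 10 genes of lipid storage and the adipocyte lineage: PPARG, CEBPA, CEBPB, CEBPD, FABP4, PLIN2, LPL, CD36, G0S2 and PNPLA2. They were picked by name from the 29196 gene names of each deposited table, and 9 of the 10 matched a row in both tables. FABP4, a fatty acid chaperone of fat cells and macrophages, matched none and was not analysed here. Of the 9, 7 reached the minimum level for testing in each batch, and PPARG and CD36 did not.

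Fat cells form in steps. C/EBPβ and C/EBPδ act early and switch on PPARγ and C/EBPα, which then turn on the genes of the mature adipocyte. In many cell types, fatty acids are taken up with the help of LPL and CD36, stored as triglyceride in droplets coated by PLIN2, and released by the lipase PNPLA2 (ATGL), which G0S2 binds and inhibits. C/EBPβ and C/EBPδ are also known as factors of the response to inflammation, and fat can accumulate in diseased tendon.

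RNA was sequenced from 19 gels. Each held wild-type adult tenocytes of the superficial digital flexor tendon of a Thoroughbred horse, grown as a primary line after death of the donor and cast into bovine type 1 collagen. All gels were harvested after 14 days with fresh media every few days. In the first batch, lines 1 to 5 were kept without cytokine (control) or with 1 nM IL-1β, which gave 10 libraries. In the second, lines 6 to 8 were kept as control, with 1 nM IL-1β, or with that dose of IL-1β together with IL1Ra at 100 ng/ml, the receptor antagonist that competes with IL-1β for its receptor, which gave 9 libraries. Each line is 1 donor with 1 library per condition, and IL1Ra alone was not sequenced. The paper reports that gels with IL1Ra alone showed little change in gene expression and were left out of sequencing for that reason. The question put by the first comparison is what lasting IL-1β does to these cells, and that of the second whether IL1Ra lessens it. The cells were cultured at passage 3 to 7, so they do not represent tendon in the animal.

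The values are normalised counts, that is, estimated reads per gene divided by a normalisation factor. In units of 1e6, they sum to between 43.4 and 49.2 per library of the first batch and between 25.0 and 34.6 of the second. The batches were normalised separately, so levels are compared only within a batch, and batch and donor line cannot be told apart between them. Changes are given as log2-fold changes of the normalised count plus 1, which understates the change of genes with few reads. A gene is called DE where limma gave it a Benjamini-Hochberg adjusted p under 0.05 and its level differed at least 2-fold on that scale, in either direction. The same test with the tenocyte line as a block, which compares each line with itself, is quoted where it gives another call. Of the tendon genes, COL1A1, COL1A2 and DCN were read in every library. TNMD, a marker of mature tendon cells, was listed at 0 throughout the first batch and stayed under 10 in the second. Other tendon genes were low in some lines. THBS4 was listed at 0 in the IL-1β gel of line 1. In the gels of line 8, MKX ran from 11.5 to 52.8, COMP from 5.24 to 131 and SCX from 10.5 to 105.

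Under IL-1β, 2 of the 7 tested genes were DE in the first batch, CEBPB and G0S2, and both were higher, with or without the block. Among all 14719 genes tested, 12.8% were DE (16.2% with the block), 4.91% higher and 7.9% lower. PNPLA2 also passed the adjusted p, without the fold. In 6 of the 7 the mean was higher with IL-1β, against 49.7% of all genes, and the median log2-fold change was 0.83 against -0.0034 over all genes. The groups did not overlap in 3 of the 7, each of them higher with IL-1β, against 19.5% of all genes in either direction and 9.34% higher. In whole gels, fewer cells of a type and less RNA per cell cannot be told apart.

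**Figure D1:**
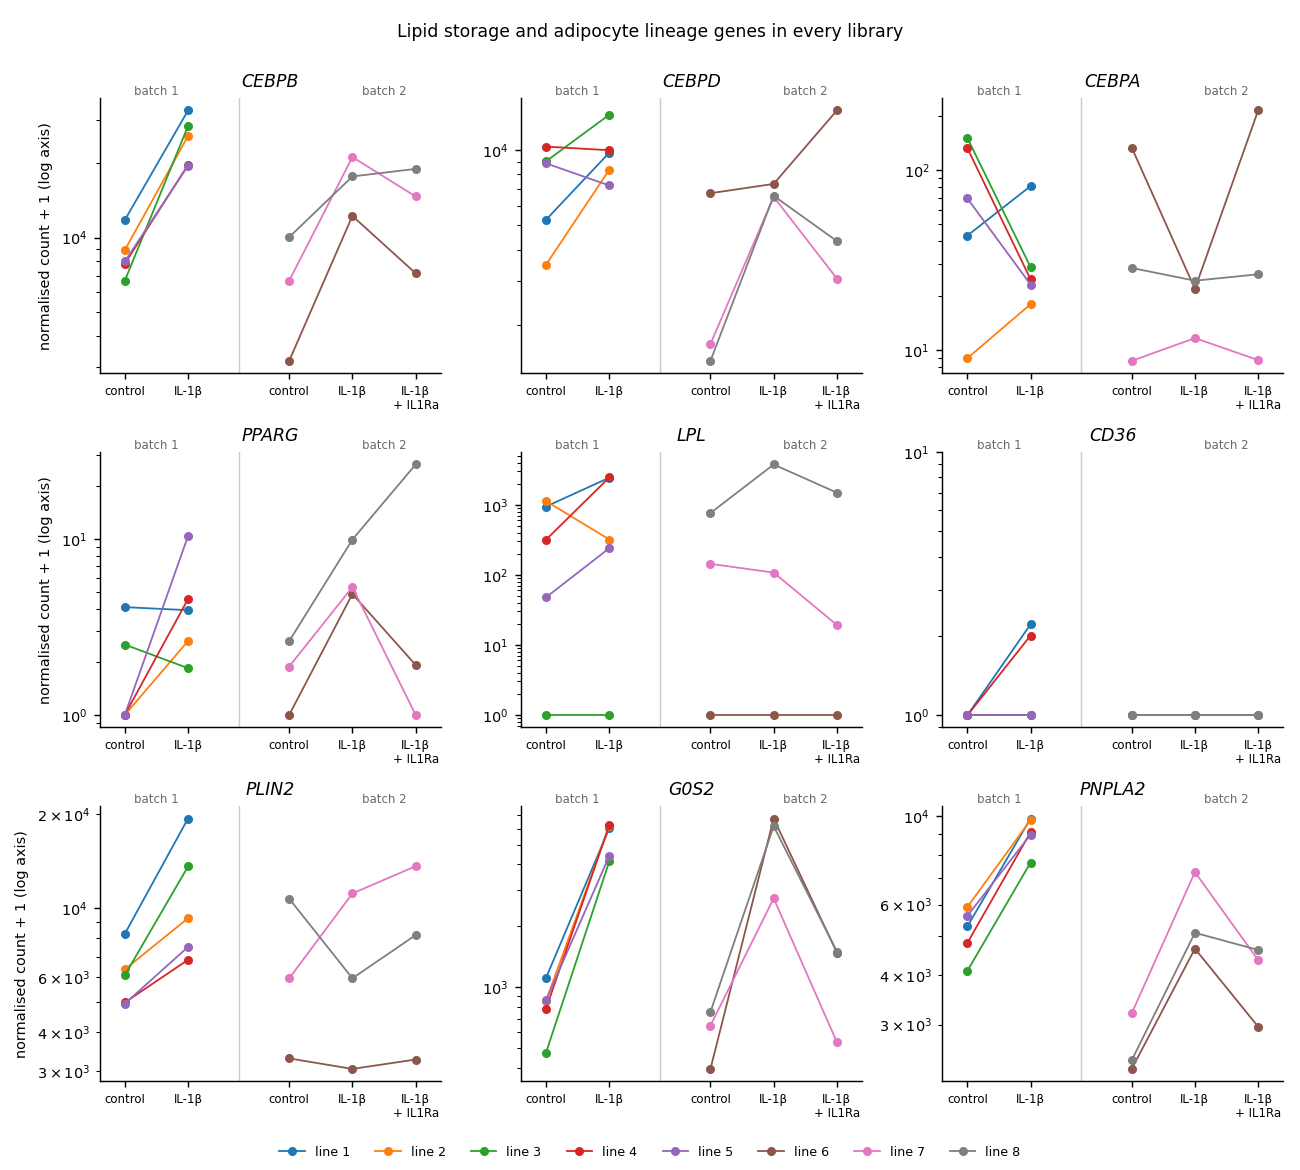
Normalised count plus 1 (log axis, a separate scale for each gene) of the 9 genes with a row, in every library. Each colour is 1 tenocyte line and joins its gels. The first batch stands left of the grey bar and the second right of it. CEBPB, G0S2 and PNPLA2 climb in all lines with IL-1β, whereas LPL differs mostly by line and CD36 stays at or near 0.

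CEBPB encodes C/EBPβ, the early factor of fat cell formation and of the acute phase response. Its normalised counts in control gels of lines 1 to 5 were 11767, 8892, 6687, 7836 and 7994. With IL-1β they were 32714, 25765, 28273, 19662 and 19553 in the same lines. The lowest IL-1β gel thus lay above the highest control gel. The means were 8635 ± 1918 and 25193 ± 5674 (SD, n = 5 lines). CEBPB rose 2.91-fold, with a log2-fold change of 1.54 (SE 0.18, adjusted p in limma 0.000301), and was higher in 5 of 5 lines.

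CEBPD, the partner of CEBPB in early adipogenesis, did not pass the test. Its control values in lines 1 to 5 were 5267, 3481, 9023, 10330 and 8852, and with IL-1β they were 9770, 8352, 13861, 9990.4 and 7220.3. Lines 1 and 2 had the lowest control values and gained the most, while lines 4 and 5 were lower with IL-1β, so the groups overlapped. The log2-fold change was 0.49 (SE 0.30, 95% interval -0.17 to 1.14, adjusted p in limma 0.250).

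CEBPA, which together with PPARG holds the mature fat cell state, was low and moved in opposite directions in different lines. It stood at 42.1, 7.99, 149, 131 and 68.4 in the control gels of lines 1 to 5. With IL-1β the values were 80.2, 17.0, 27.8, 23.7 and 22.1. The 3 lines with the most CEBPA in control, lines 3 to 5, had less of it with IL-1β, and lines 1 and 2 had more. Its fitted log2-fold change was -0.90 (SE 0.74, 95% interval -2.54 to 0.75, adjusted p in limma 0.404). The log2 ratio of CEBPB to CEBPA within a library was higher with IL-1β in each of the 5 lines, by 0.56, 0.54, 4.46, 3.75 and 2.88.

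PPARG, the nuclear receptor that drives fat cell formation, was close to 0. Control gels of the 5 lines had 3.10, 0, 1.51, 0 and 0 normalised counts, and gels with IL-1β had 2.94, 1.63, 0.84, 3.56 and 9.39. These amount to a few reads per library, too few for the test. With no filter on low values its log2-fold change was 1.29 (SE 0.56, adjusted p in limma 0.137).

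G0S2 had the largest fitted change of the 7 tested genes. Its protein inhibits the lipase PNPLA2. Lines 1 to 5 had 1109, 855, 476, 782 and 861 normalised counts of it in control gels. In IL-1β gels they had 6018, 6155.5, 4137, 6239 and 4397.5. No IL-1β gel came near the control range. G0S2 rose 6.73-fold from 817 ± 227 to 5389 ± 1031 (SD, n = 5 lines), a log2-fold change of 2.75 (SE 0.22, adjusted p in limma 3.19e-05), in 5 of 5 lines.

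PNPLA2, the lipase that takes the first fatty acid off stored triglyceride, rose less. Control gels of lines 1 to 5 held 5284, 5911, 4086, 4803 and 5616, and IL-1β gels held 9858, 9774, 7644, 9112 and 8984. The groups were apart, and the gain was alike in size in the 5 lines, 0.68 to 0.92 on the log2 scale. PNPLA2 had a log2-fold change of 0.83 (SE 0.11, adjusted p in limma 0.000692), below the fold needed for DE. An adjusted p under 0.05 without the fold was reached by 3 of the 7 genes, against 27.7% of all genes.

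Since G0S2 gained more than PNPLA2, the log2 ratio of G0S2 to PNPLA2 within a library was higher with IL-1β in every line of the first batch. It gained 1.54, 2.12, 2.21, 2.07 and 1.67 in lines 1 to 5 (mean 1.92 ± 0.30 SD). A factor shared by all genes of a library cancels in this ratio. Whether transcript lengths also entered the factors is not given in the sources used here. The ratio was built from genes already described and was not tested.

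PLIN2, the coat protein found on lipid droplets of most cells, was higher with IL-1β in 5 of 5 lines but by unequal amounts. The control values of lines 1 to 5 were 8275, 6364.5, 6095, 4986 and 4943, and the IL-1β values were 19375, 9286.5, 13602, 6829.6 and 7513. Lines 1 and 3 gained most, and the IL-1β gels of lines 4 and 5 lay within the control range. The fitted change was 0.80 on the log2 scale (SE 0.28), with an adjusted p in limma of 0.0538 (0.0398 and 0.0485 with libraries scaled to equal sums or upper quartiles). With the line as a block the adjusted p was 0.00465, still below the fold for DE. With the block, 4 of the 7 genes passed that p without the fold, against 43.2% of all genes.

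LPL, which frees fatty acids from circulating lipoproteins, differed by line far more than by treatment. Values of 945, 1128, 0, 317 and 46.8 stood in the control gels of lines 1 to 5 and, in the IL-1β gels, 2440.5, 319, 0, 2463 and 239. Lines 1, 4 and 5 were higher, line 2 was lower, and line 3 was listed at 0 in both gels. LPL was also listed at 0 in all 3 gels of line 6. A 0 here is a listing and no measured absence, since EIF2S2, a translation factor that every cell uses, was also listed at 0, in 3 of 10 and 6 of 9 libraries of the 2 batches. The log2-fold change of LPL was 0.97 (SE 2.43, adjusted p in limma 0.804), and it ran from 0.47 to 1.66 when 1 line was left out. Without line 2 and with the block, LPL passed the test for DE (adjusted p in limma 0.0465).

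ANGPTL4, a secreted inhibitor of LPL, was higher with IL-1β in 5 of 5 lines. It rose by a log2-fold change of 0.50 (SE 0.15, adjusted p in limma 0.0299), under the fold for DE. CD36, the fatty acid transporter, was listed at 0 in all 5 control gels and in 3 IL-1β gels, with 1.22 and 1.01 in lines 1 and 4.

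**Figure D2:**
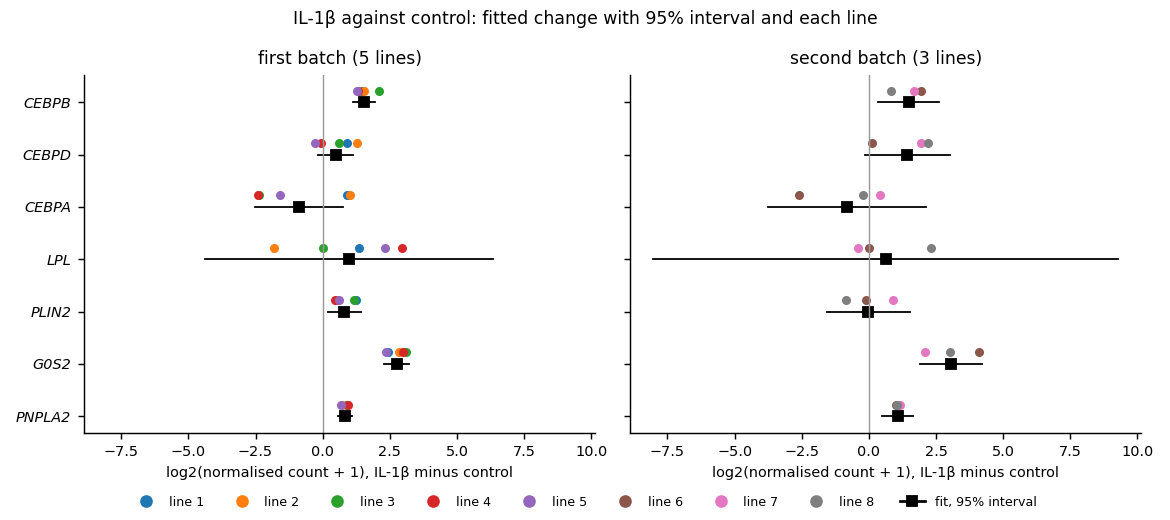
Change of log2(normalised count + 1) with IL-1β for the 7 tested genes, with the fitted value (square), its 95% interval without the block (bar) and each line (coloured point), for the first batch (left) and the second (right). The intervals of CEBPB, G0S2 and PNPLA2 stand clear of 0 in both batches, and LPL has the widest, from -4.40 to 6.33 in the first batch.

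The second batch asked the same of 3 further lines, with its own control gels. Without the block, limma called 0 of the 7 genes DE for IL-1β against control, while 3 had an unadjusted p under 0.05. Among all 16705 genes tested there, 0.341% were DE and 11.4% had an unadjusted p under 0.05. With the line as a block, CEBPB, G0S2 and PNPLA2 were DE and higher, 3 of the 7, against 5.18% of all genes DE and 2.59% DE and higher. These calls rest on few lines. Without line 6, G0S2, PNPLA2 and CEBPD were DE with the block. With line 7 or line 8 left out, 0 members were DE, where 0 and 11 of all genes were DE. The groups did not overlap for CEBPB, G0S2 and PNPLA2, against 16.4% of all genes in either direction and 8.82% higher.

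G0S2 in lines 6, 7 and 8 stood at 395, 645 and 753 in control gels and at 6716, 2724 and 6157 with IL-1β. Line 7 gained least and line 6 most, and each line gained. Its log2-fold change was 3.06 (SE 0.50, adjusted p in limma 0.0570, 0.00954 with the block).

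PNPLA2 went from 2320.3, 3198.5 and 2439 to 4647.5, 7234 and 5095 in lines 6, 7 and 8. All 3 lines gained 1.00 to 1.18 on the log2 scale, the narrowest range of gains among the 7 genes. The fitted change was 1.08 (SE 0.25, adjusted p in limma 0.140, 0.0188 with the block). Scaled to equal sums, without the block, it was 0.90, below the fold for DE.

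CEBPB went from 3163.5, 6681 and 10033 to 12228, 21181 and 17678 in lines 6, 7 and 8. Line 8 began highest and gained least. This was a log2-fold change of 1.48 (SE 0.50, adjusted p in limma 0.295, 0.0213 with the block).

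CEBPD had 6723, 1675 and 1434 in control gels and 7326, 6502 and 6564 with IL-1β. The IL-1β gels were alike in level while the control gel of line 6 already stood that high. Fitted over the 3 lines, the log2-fold change was 1.42 (SE 0.69, adjusted p in limma 0.486, 0.0986 with the block). Without line 6 it was 2.07, with an adjusted p in limma of 0.0230, in a fit that called 324 of all genes DE against 57 with all lines. Without line 7 it was 1.16 (adjusted p in limma 0.831) and without line 8 it was 1.04, and neither was DE.

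PLIN2 showed no common direction in the second batch, with 3300.3, 5957 and 10726 in control gels and 3054, 11143 and 5961 with IL-1β. Line 7 was higher, line 8 lower and line 6 nearly level. Fitted together, they gave a log2-fold change of -0.02 (SE 0.67, 95% interval -1.55 to 1.51, adjusted p in limma 0.996). CEBPA went from 132, 7.70 and 27.5 to 20.8, 10.6 and 23.2, so that line 6, which held the most, moved farthest. LPL was listed at 0 in line 6, went from 143 to 107 in line 7 and from 762 to 3768 in line 8. PPARG went from 0, 0.88 and 1.63 to 3.86, 4.33 and 8.92, again a few reads, and CD36 was listed at 0 in all 9 libraries.

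IL1Ra was compared in the same 3 lines, and both comparisons reuse gels of the second batch. Between IL-1β + IL1Ra and IL-1β, 0 of the 7 genes were DE in limma with or without the block. Among all genes tested, 0 were DE without the block and 1 with it (0.00599%). Without the block, 1 of the 7, G0S2, had an unadjusted p under 0.05, against 2.78% of all genes. With the block the unadjusted p in limma was 0.000634 for G0S2 and 0.0206 for PNPLA2 (adjusted p in limma 0.190 and 0.476). The share of all genes with an unadjusted p under 0.05 was not counted with the block. The groups did not overlap for G0S2 and PNPLA2, both lower with IL1Ra, against 6.47% of all genes in either direction.

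G0S2 with IL-1β + IL1Ra stood at 1475.5, 535 and 1492 in lines 6, 7 and 8. Each value lay below the IL-1β gel of the same line. In line 7 it also lay below the control gel, and in lines 6 and 8 it stayed above. Against IL-1β the log2-fold change was -2.19 (SE 0.50, 95% interval -3.34 to -1.04), lower in 3 of 3 lines by 2.04 to 2.35, with an adjusted p in limma of 0.995 (0.190 with the block). Against control it was 0.87 (SE 0.50, 95% interval -0.28 to 2.02, adjusted p in limma 1.00, 0.395 with the block).

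As a share of the log2 gain with IL-1β, G0S2 kept 46.5% in line 6, -12.9% in line 7 and 32.6% in line 8 when IL1Ra was present. PNPLA2 kept 35.1%, 37.7% and 86.5% of its gain, with 2961, 4352 and 4614 normalised counts. CEBPB kept 60.4%, 68.2% and 112%, with 7161, 14667 and 18963. The spread between lines was wide in each of these genes, and differences between genes in this share were not tested.

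CEBPB with IL-1β + IL1Ra overlapped both other groups, with a log2-fold change of 1.08 against control (SE 0.50, adjusted p in limma 0.910, 0.155 with the block) and -0.40 against IL-1β. PNPLA2 had a log2-fold change of 0.57 against control (SE 0.25, adjusted p in limma 0.885) and of -0.51 against IL-1β (SE 0.25, adjusted p in limma 1.00, 0.476 with the block). CEBPD had 14413, 3063 and 4327 in lines 6, 7 and 8. Line 6 was thus highest with IL1Ra while lines 7 and 8 lay between their control and IL-1β gels.

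PLIN2 with IL-1β + IL1Ra had 3273, 13632 and 8197, CEBPA 213, 7.78 and 25.3, and LPL 0, 18.2 and 1490.1 in lines 6, 7 and 8. Line 6 was lowest for PLIN2 and LPL and line 7 for CEBPA in each of the 3 conditions. PPARG reached 25.5 in line 8, its highest value in the second batch, and 0.92 and 0 in lines 6 and 7. Against control, 0 of the 7 genes were DE in limma with IL-1β + IL1Ra with or without the block, while 0.012% of all genes were DE (0.251% with the block). An unadjusted p under 0.05 was reached without the block by 0 of the 7, against 5.67% of all genes. With the block the unadjusted p in limma was 0.00293 for CEBPB, 0.0122 for PNPLA2 and 0.0236 for CEBPD. Their adjusted p in limma with the block was 0.155, 0.234 and 0.286. The share of all genes with an unadjusted p under 0.05 was not counted with the block. The log2 ratio of G0S2 to PNPLA2 was lower with IL1Ra than with IL-1β alone by 1.54, 1.61 and 1.90 in lines 6, 7 and 8, after gains of 3.08, 0.90 and 1.97 with IL-1β.

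**Figure D3:**
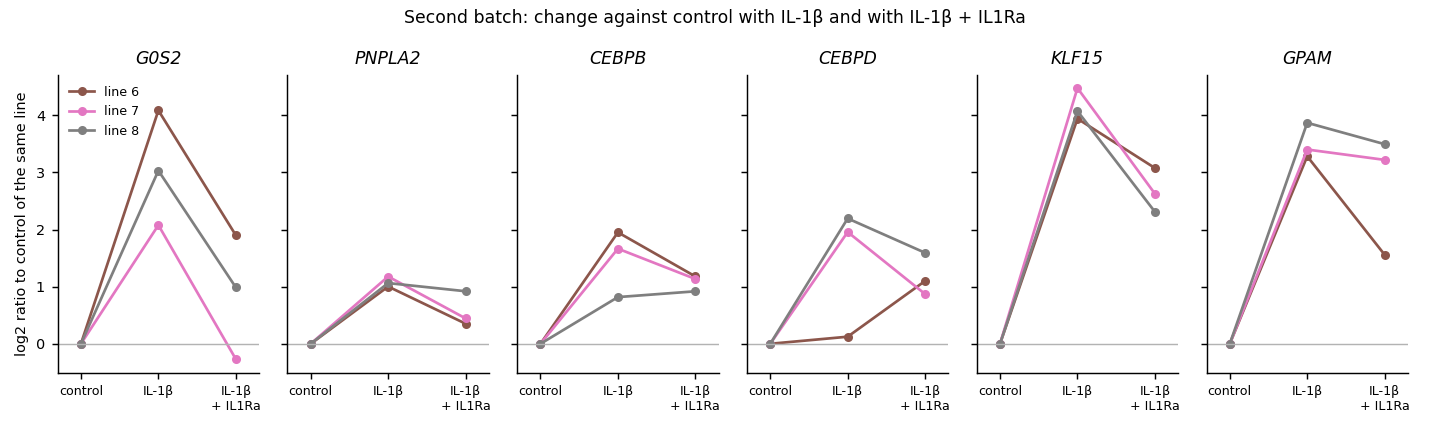
Log2 ratio to the control gel of the same line, on the scale of normalised count plus 1, in the 3 lines of the second batch. Points are control (0 by construction), IL-1β and IL-1β + IL1Ra, and KLF15 and GPAM are genes of the surrounding pathway. G0S2 and GPAM both come down with IL1Ra in each line, G0S2 to -0.27 in line 7. In lines 6, 7 and 8, G0S2 keeps 46.5%, -12.9% and 32.6% of its gain and GPAM 47.5%, 94.7% and 90.3%.

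The genes differ in where their spread lies. In the first batch, the condition took 94.3% of the sum of squares of log2 values for G0S2, 88.2% for CEBPB and 86.6% for PNPLA2, against a median of 27.7% over all genes. The tenocyte line took 93.9% for LPL, 49.4% for CEBPD, 49.1% for CEBPA and 47.4% for PLIN2, against a median of 48.7%. For PLIN2 the condition took nearly as much, 45.0%. In the second batch the condition took 83.6%, 74.7% and 55.5% for G0S2, PNPLA2 and CEBPB, and the line took 95.8% for LPL, 79.3% for PLIN2 and 70.7% for CEBPA. The all-gene medians there were 19.9% for condition and 43.8% for line. Each share includes measurement error, and a line is a donor with its own culture history. For LPL the shares include line 3 and line 6, listed at 0 in all their gels, and were not computed without them. Without line 3 the SE of its first-batch log2-fold change was 1.16, against 2.43 with all lines.

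**Figure D4:**
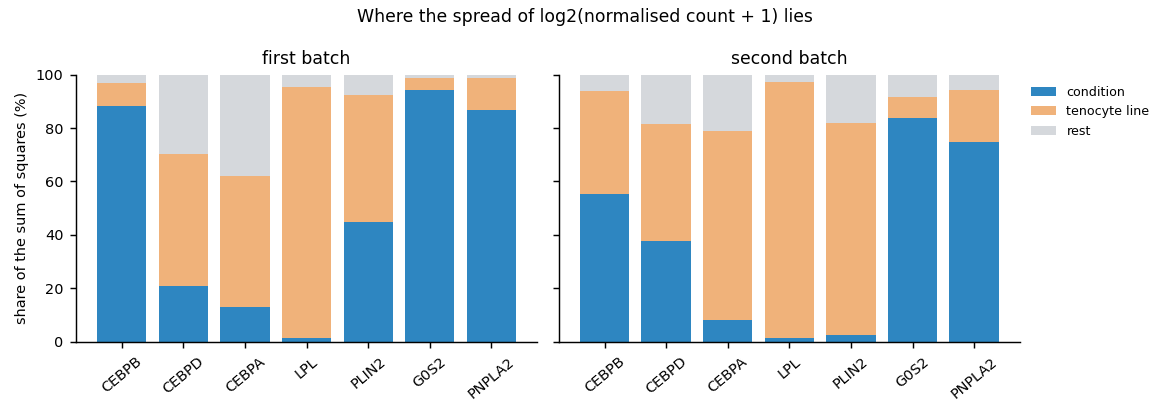
Share of the sum of squares of log2(normalised count + 1) that lies between conditions (blue), between tenocyte lines (orange) and in the rest (grey), in percent, for the 7 tested genes of each batch. G0S2, CEBPB and PNPLA2 are mostly blue in both batches and LPL is orange for 93.9% and 95.8%. The LPL shares include line 3 and line 6, where it was listed at 0 in every gel.

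Genes around the 10 were read from lists of the same pathways. Among regulators of adipogenesis, 18 of 20 were tested in the first batch. Of these, 3 were DE and higher, against 4.91% of all genes, and 3 DE and lower, against 7.9%. The median log2-fold change of the list was -0.08. KLF15, a Krüppel-like factor that promotes fat cell formation, rose by 4.06 (SE 0.34, adjusted p in limma 4.20e-05). Its normalised counts went from 18.6 to 29.7 in control gels to 264 to 932 with IL-1β. PPARA, the receptor that drives fatty acid burning, rose by 1.28, and NR3C1, the glucocorticoid receptor, by 1.21. ZBTB16, a zinc finger repressor, fell by 5.27 on the log2 scale (SE 0.91, adjusted p in limma 0.00224), EBF2, a factor of brown fat precursors, fell by 1.67 and KLF5 fell by 1.20. NR3C1 and KLF5 were named after their values were seen. The relatives and partners of the C/EBP factors gave 0 of 7 DE in limma with or without the block (3 with an unadjusted p under 0.05, which 39.5% of all genes had), with a median log2-fold change of -0.15.

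Of the first step of triglyceride synthesis, GPAM, the acyltransferase of the mitochondrial outer membrane, went from 1033 to 1741 in control gels to 6667 to 19335 with IL-1β in the first batch. It rose by 2.94 (SE 0.26, adjusted p in limma 6.43e-05). GPAM was the DE gene among the 12 of that list, while 12.8% of all genes were DE, and the list median was 0.21. In the second batch GPAM was at 863, 623 and 1042 in control gels and at 8395, 6586 and 15219 with IL-1β in lines 6, 7 and 8. That change of 3.52 (SE 0.54) passed even without the block (adjusted p in limma 0.0493). It was lost with line 7 or line 8 left out, where 0 of all genes were DE in limma without the block. With IL-1β + IL1Ra GPAM stood at 2541, 5808 and 11745, a log2-fold change of 2.76 against control (adjusted p in limma 0.365, 0.0464 with the block).

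KLF15 had a log2-fold change of 4.16 in the second batch (SE 0.75, adjusted p in limma 0.0677, 0.00226 with the block), from 9.95, 12.3 and 44.6 to 167, 295 and 766. With IL1Ra it stood at 91.4, 81.1 and 225 (log2-fold change 2.67 against control, adjusted p in limma 0.618, 0.0267 with the block). KLF15 and GPAM were the genes of the adipogenic and triglyceride lists that were DE in the second batch. Both were DE with the block for IL-1β and for IL-1β + IL1Ra against control, where 0.21% of all genes were DE and higher in the latter, and GPAM was DE for IL-1β without it. For IL-1β + IL1Ra against control these calls were lost with line 7 or line 8 left out, and for IL-1β with line 7 left out, where 0 of all genes were DE in limma with the block. The share of the log2 gain left with IL1Ra was 78.1%, 58.7% and 56.7% for KLF15 and 47.5%, 94.7% and 90.3% for GPAM in lines 6, 7 and 8.

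Among the other enzymes and receptors of lipolysis, 5 of 6 tested genes had a negative log2-fold change in the first batch. Of the 6, 3 were DE and lower, against 7.9% of all genes, and 0 were DE and higher. MGLL, which finishes the breakdown of triglyceride by splitting monoglycerides, fell by 2.52 on the log2 scale (SE 0.39, adjusted p in limma 0.00125), from 3098 to 4545 in control gels to 258 to 1558 with IL-1β. ADRB3, a β-adrenergic receptor that starts hormone-driven lipolysis in fat cells, fell by 1.70. LIPE, the hormone-sensitive lipase, rose by 0.99 (SE 0.19, adjusted p in limma 0.00332), just under the fold for DE, and ABHD5, the co-activator of PNPLA2, had a log2-fold change of -0.06 (SE 0.14, adjusted p in limma 0.771). Lines 6 to 8 gave 0 of 7 DE in limma with or without the block, and 1 with an unadjusted p under 0.05.

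The coat and fusion proteins of lipid droplets gave 0 of 7 DE in the first batch in limma with or without the block (2 with an unadjusted p under 0.05, against 39.5% of all genes), with a median log2-fold change of 0.16. PLIN3, the droplet protein most like PLIN2 in being found in many tissues, had a log2-fold change of 0.14 (SE 0.10, adjusted p in limma 0.340). CIDEA, which fuses droplets in brown fat, was tested in the second batch. It went from 36.4, 15.5 and 79.2 to 2.15, 3.50 and 11.2 in lines 6, 7 and 8. It was DE with the block (log2-fold change -2.72, adjusted p in limma 0.302, 0.0264 with the block). The call was lost with line 7 left out, where 0 of all genes were DE in limma with the block. In the first batch CIDEA was not tested. There it went from 7.82, 24.6, 53.8, 43.4 and 26.7 to 5.24, 2.90, 1.13, 8.70 and 3.05 in lines 1 to 5.

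For fatty acid uptake and the control of LPL, 2 of 14 tested genes were DE and higher and 1 DE and lower in the first batch. Of all genes, 4.91% were DE and higher and 7.9% DE and lower. ACSL4, a fatty acid activating enzyme, rose by 1.00, and VLDLR, which takes up triglyceride-rich particles, fell by 1.37. For fatty acid oxidation, 4 of 13 were DE and higher in the first batch, against that 4.91% of all genes, with a median of 0.36. PDK4, a switch from glucose to fat as fuel, rose by 2.50, UCP2, a carrier of the inner mitochondrial membrane, by 2.38, ACAA2 by 1.35 and ETFDH, named after its value was seen, by 1.01. CPT1B was DE and lower with the block (log2-fold change -1.48, adjusted p in limma 0.206, 0.0246 with the block). Of these 2 lists 0 genes were DE in the second batch in limma with or without the block, while an unadjusted p under 0.05 was found for 1 gene of the first list and 2 of the second.

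**Figure D5:**
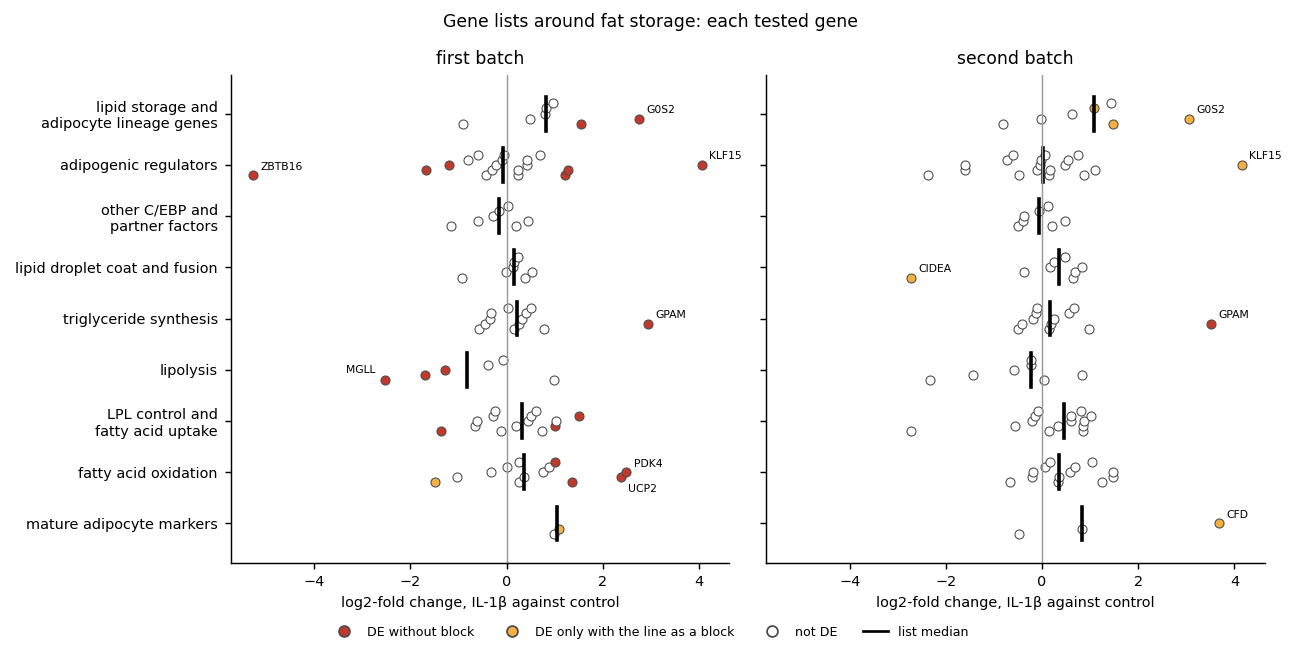
Fitted log2-fold change with IL-1β of each tested gene in 9 gene lists (rows), first batch left and second right. Red points are DE without the block, orange points only with the line as a block, open points neither, and black bars are list medians. The 10 genes described here have the top row, with G0S2 farthest right, and single genes such as KLF15, GPAM and MGLL stand far from the median of their list.

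Most markers of mature fat cells were listed at low values or 0. Of 10 markers, 7 stayed under 10 normalised counts in every library of each batch, and LEP, RETN and RBP4 were listed at 0 in all 19 libraries. PLIN1 and CIDEC, the droplet proteins of fat cells, were under 10 throughout. ADIPOQ, the hormone adiponectin, was an exception: it ran from 74.3 to 2736 in the control gels of the first batch and from 293 to 2308 with IL-1β, and was DE with the block (log2-fold change 1.10, adjusted p in limma 0.400, 0.0345 with the block). In the second batch its change was -0.47 (SE 1.92, adjusted p in limma 0.968), with the highest value, 6067, in the control gel of line 7. CFD, the fat cell protease adipsin, ran from 0 to 4.57 in control gels and 5.06 to 160 with IL-1β in the first batch, where it was not tested. It had a log2-fold change of 3.67 in the second (adjusted p in limma 0.505, 0.0313 with the block). That call was lost with line 7 left out, where 0 of all genes were DE in limma with the block. LIPE, described above with lipolysis, is also on this list and was not near 0. It ran from 203 to 309 in control gels and 401 to 673 with IL-1β in the first batch. In the second it ran from 141 to 265 and 278 to 404.

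Summed over the 10 fat cell markers, the normalised counts ran from 370 to 3053 in control gels and 947 to 2845 with IL-1β in the first batch. The sums in the second were 194 to 6241 (control), 446 to 2134 (IL-1β) and 292 to 1919 (IL-1β + IL1Ra). Of markers of macrophages and leukocytes, 5 of 10 were under 10 in every library of the first batch, PTPRC, CSF1R, ADGRE1 and CD163 among them, and AIF1 was listed at 0. The 2 that were tested rose, MSR1 by 4.81 and CD68 by 2.64, and the summed list ran from 62.0 to 2096 in control and 350.2 to 4447 with IL-1β. CD14 of that list differed by line and, in line 7, between gels of the same line. It stood at 1947 in control and 2811 with IL-1β in line 5 and at most 71.4 in lines 1 to 4. In line 6 it ran from 1158 to 1482, and in line 8 it was listed at 0. Line 7 had CD14 listed at 0 in control, at 1262 with IL-1β and at 645 with IL-1β + IL1Ra. In the second batch the sums were 282 to 1277, 1377 to 4400.4 and 1633 to 3040, and CD68 was DE with the block (log2-fold change 1.89, adjusted p in limma 0.586, 0.0369 with the block). This call was lost with line 7 left out, where 0 of all genes were DE in limma with the block.

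Most tested markers of the other cell types were lower with IL-1β. DCN, a tenocyte marker, was higher in every line of both batches. In the first batch 6 of 7 tested tenocyte markers were DE and lower, against 7.9% of all genes. Their log2-fold changes included -4.25 for SCX, -4.08 for COMP, -3.95 for MKX and -3.16 for THBS4. Of the mural markers 5 of 6 were DE and lower, against the same 7.9%, with -4.10 for DES and -3.80 for CSPG4. Of the endothelial list 1 of 3 tested was DE and lower, ERG, which fell by 3.67, and PECAM1 was DE and higher with the block (log2-fold change 1.68, adjusted p in limma 0.115, 0.0455 with the block). CDH5 and KDR, which define endothelial cells, were under 10 in every library. EMCN of the same list was under 10 in the first batch and ran from 20.7 to 191 in the second. In the first batch the summed mural list ran from 11199 to 19346 in control and 3055.5 to 4400.1 with IL-1β. The endothelial list ran from 640.5 to 1692 and 61.7 to 202, and ERG alone from 588 to 1634 and 39.3 to 159. Tenocyte sums were 1.01e+06 to 1.79e+06 and 4.25e+05 to 8.02e+05. They overlapped in the second batch, at 2.37e+05 to 8.49e+05 and 3.04e+05 to 4.58e+05. With the block, SCX, COMP, ERG, DES, CSPG4 and MCAM were DE and lower in the second batch, where 2.59% of all genes were. These calls too were lost with line 7 left out. Without the block, and with all lines, 0 genes of these 3 lists were DE in the second batch in limma. An unadjusted p under 0.05 was found there for 0 tenocyte, 1 endothelial and 1 mural marker. The part of these markers in the changes of CEBPB, G0S2 and PNPLA2 was not tested.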

How the data were processed

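RNA sequencing of 19 equine tenocyte gels was read from 2 deposited tables of signal values, 1 for each batch. Per the labels and the study's methods, libraries were made with a TruSeq stranded mRNA kit and checked with FastQC and MultiQC. The authors quantified transcripts of EquCab3.0 with Salmon, brought them to gene level by tximport and deposited the counts after DESeq2 1.36 normalisation in R 4.2.1. Whether their factors included transcript lengths is not given in the sources used here. Between 26.9% and 52.8% of low values lay within 0.02 of a whole multiple of 1 read, so whole reads could not be had back and count models were left out. Depth is therefore known only as the sum of normalised counts. All columns were mapped to samples. Identical values were held by 0 of 45 pairs of libraries in the first batch and 0 of 36 in the second.

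A gene entered the test if 5 libraries of the first batch, or 3 of the second, reached 10 normalised counts. Values of log2(normalised count + 1) went into limma 3.58.1 in R 4.3.3 with a trended eBayes step, and p was adjusted by Benjamini-Hochberg over all genes tested in each of 4 comparisons. The 9 libraries of the second batch shared one fit. The code was tested on simulated data. The tenocyte line, from the sample titles, is the donor and pairs the libraries: deviations from condition means correlated within a line at 0.35 to 0.58 (first batch) and 0.54 to 0.79 (second), and between lines at -0.36 to 0.29 and -0.62 to 0.25. The study's methods name no block, so the fit without it is the main one.

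The genes and lists were chosen with earlier results of these data known. Beside the 10 genes, those named are genes of each list that were DE with or without the block, at most 4 per list and comparison, and ANGPTL4. Some genes that meet this rule are counted but not reported here by name. Other genes were named where the text says so or for their role or level (LIPE, ABHD5, PLIN3, TNMD, COL1A1, COL1A2, DCN, EIF2S2 and markers at or near 0), after their values were seen. A search for genes alike to PPARG and FABP4 was planned for tested genes and neither was tested. No sequences were used, and levels are not compared between genes for want of transcript lengths. Alternatives were other pseudocounts (0.5 and 5), filters (none and 20), scalings, no trend, 2 conditions only, the block and each line left out.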

Additional observations from a re-analysis of the deposited data

How the results depend on the processing

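For the 7 genes, the changes kept their direction and their DE call under every alternative that kept all lines, except with the tenocyte line as a block, which made CEBPB (log2-fold change 1.48), G0S2 (3.06) and PNPLA2 (1.08) DE for IL-1β in the second batch, 3 genes in place of 0. The block changed no other DE call among the 7 genes. Without the fold, PLIN2 in the first batch passed the adjusted p with equal sums (0.0398), with equal upper quartiles (0.0485) and with the block (0.00465). PNPLA2 in the second batch was under the fold with equal sums (0.90). Across leaving out each line of the second batch, the number DE there ran from 0 to 1, and from 0 to 3 with the block. In the first batch it was 2 throughout, and 2 to 3 with the block.

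Directions turned when 1 line was left out, for genes that had not passed. For IL-1β against control in the second batch, the log2-fold change of CEBPA ran from -1.42 to 0.093 (0.093 without line 6), of PLIN2 from -0.48 to 0.40 (0.028 without line 6) and of LPL from -0.21 to 1.15. For IL-1β + IL1Ra against control, CEBPA ran from -0.051 to 0.35, PLIN2 from -0.20 to 0.59 and LPL from -1.45 to 0.48. Against IL-1β, CEBPA ran from -0.14 to 1.70 and CEBPD from -0.84 to 0.19.

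The number of all genes DE for IL-1β in the second batch was 57, 34 without trend, 32 with only the 2 conditions, 865 with the block, and 0 to 324 with a line left out (0 to 1236 with the block). For IL-1β + IL1Ra against control it was 2, 1 when scaled to equal sums, 0 with only the 2 conditions, 42 with the block, and 0 to 36 (0 to 414). Against IL-1β it was 0, 1 with the block, and up to 10 (100 with the block). Scaling to equal sums moved the all-gene median of IL-1β against control in the second batch from -0.0084 to -0.19 and the share of DE genes that were higher from 78.9% to 61.4%, and it moved the median of IL-1β + IL1Ra against IL-1β to 0.11. Of the 7 genes, 6 and 5 were higher with IL-1β under each scaling in the first and second batch. The cause of these shifts was not tested. With at most 25.5 normalised counts in a library, PPARG and CD36 stayed below the level for testing. Without a filter, PPARG had a log2-fold change with IL-1β of 1.29 in the first batch (adjusted p in limma 0.137). In the second batch it was 1.90 (adjusted p in limma 0.654). These values rest on too few reads to judge a change.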
